A study of Mus musculus with 91 samples.

Results

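The miR-30 family is a conserved group of mouse microRNAs (miRNAs). Its members here were chosen by name, as the rows of the main count table for mmu-miR-30a-5p, mmu-miR-30a-3p, mmu-miR-30b-5p, mmu-miR-30c-5p, mmu-miR-30d-5p, mmu-miR-30e-5p and mmu-miR-30e-3p (mmu marks mouse and is left out from here on), which are 7 of the 1504 mature miRNAs that the table holds. All 7 were counted in 91 libraries, 3 of them from a second table, made by CAS-seq, a small RNA method for very low input that uses Cas9 to remove adapter dimers before amplification.

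Of these libraries, 88 carried a label that placed them in a group. A first set of 62 libraries came from extraembryonic ectoderm (Exe) and epiblast (Epi), the tissues that form the trophoblast part of the placenta and the embryo proper, separated by needle from embryos at E6.5 and E7.5. Both tissues came from embryos of 4 genotypes, namely control, Dnmt1-KO, the double knockout Dnmt3a/3b-DKO, and the triple knockout called Dnmt-null, which lacks Dnmt1 as well as Dnmt3a and Dnmt3b. The embryos had an Oct4-EGFP transgenic father on a C57BL/6J background and a B6D2F1 mother (C57BL/6J crossed with DBA2). Stop codons were introduced in the Dnmt genes by injecting a cytosine base editor and guide RNAs into zygotes. Each of the 16 groups held 4 libraries, except E7.5 Epi control and E7.5 Epi Dnmt-null with 3. DNMT1 copies methylation onto new DNA strands, whereas DNMT3A and DNMT3B set new methylation. The Dnmt mRNAs are not read by small RNA sequencing, so the genotypes could not be checked in these libraries.

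The second set comprised AG-haESCs, which are androgenetic haploid embryonic stem cells of C57BL/6 origin that carry a sperm-derived genome only, and semi-cloned (SC) embryos, made by injecting such a cell into an oocyte in place of sperm. AG-haESCs were WT (3 libraries), O48 (3) or Mir-6KO (2). According to the methods, O48 is the line that received the miRNA deletion plasmids, and the study's text places these deletions in DKO cells. By these sources O48 is a DKO line, though its label does not say so. DKO lines lack the H19 and IG differentially methylated regions. Mir-6KO lines were expanded from single cells after deletion of 6 miRNA genes, so each is 1 clone. SC embryos at E6.5 were WT, Dnmt-null, DKO or DKO-Dnmt-null, and those at E7.5 were Control, made from DKO cells, or Mir-6KO-Dnmt-null, with 3 libraries each. The labels give the SC samples as semi-cloned embryos, the study's text describes those of E6.5 WT, Dnmt-null and DKO as epiblast, and the tissue taken from the other SC groups is not given in the sources used here. The sources do not give the number of embryos per library or state that replicates came from separate litters or cultures, so p-values here measure the spread between libraries, which may be partly technical.

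A miRNA hairpin yields a 5p and a 3p strand, and either can be loaded onto an Argonaute protein to repress mRNAs that pair with its seed, bases 2 to 8 counted from the 5′ end. The 5p strands of the miR-30 family share 1 seed and so are expected to read many of the same targets. The family is expressed in most tissues and is known for its part in differentiation, in restraining the epithelial to mesenchymal transition and in kidney development.

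The mature sequences are shown because they define which members share a seed and how little separates the rest. RefSeq annotation on GRCm38.p6 gave a sequence for 5 of the 7 members, and miR-30b-5p and miR-30d-5p are named only. The seed is in capitals.

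mmu-miR-30a-5p: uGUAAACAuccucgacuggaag
mmu-miR-30c-5p: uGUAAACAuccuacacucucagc
mmu-miR-30e-5p: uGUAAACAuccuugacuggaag
mmu-miR-30a-3p: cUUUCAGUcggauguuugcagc
mmu-miR-30e-3p: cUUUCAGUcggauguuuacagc

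The 3 printed 5p members had the seed GUAAACA, which 4 of the 1679 mature miRNAs in the sequence table shared. The fourth, miR-384-5p, differs from the family beyond the seed:

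miR-384-5p: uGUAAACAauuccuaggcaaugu

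Both 3p members had the seed UUUCAGU, which no other entry of the table shared. Counted from 1 at the 5′ end, miR-30a-5p and miR-30e-5p differed at 1 base (C13U), and miR-30a-3p and miR-30e-3p at 1 base (G18A). miR-30a-5p and miR-30c-5p differed at 5 bases of the 22 compared (C13A, G14C, G18C, G19U and A20C). The single-base difference between miR-30a and miR-30e means that reads of 1 could be counted for the other if an error fell on that base.

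The family lies at 3 places in the genome, with hairpins in pairs. Mir30a (chr1:23272269-23272339, no annotated host gene) lies 19361 bases from Mir30c-2 (chr1:23291701-23291784, which overlaps the lincRNA Gm27028). Mir30c-1 (chr4:120769534-120769622) and Mir30e (chr4:120772606-120772697) lie 2983 bases apart, both intronic in all 6 annotated transcripts of the protein-coding gene Nfyc on the minus strand. Mir30b (chr15:68337415-68337510) and Mir30d (chr15:68341208-68341289) lie 3697 bases apart on the minus strand, within noncoding transcripts. Mir30c-1 and Mir30c-2 give the same mature miR-30c-5p (chr4:120769584-120769606 and chr1:23291714-23291736), so a count of it cannot be assigned to either gene.

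The Mir30e hairpin (GRCm38.p6 chr4:120772606-120772697, minus strand, both arms in capitals) is shown because its arms behaved differently between cells and embryos, and because a second annotated miRNA sits on its opposite strand.

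Mir30e: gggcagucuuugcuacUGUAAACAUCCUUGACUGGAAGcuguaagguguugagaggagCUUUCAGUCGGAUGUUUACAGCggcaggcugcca
miR-30f: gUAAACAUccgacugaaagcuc

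miR-30f lies on the plus strand and overlaps miR-30e-3p by 19 bases as its reverse complement. Its deposited count equalled that of miR-30e-3p in 91 of 91 libraries. Among the 935 rows with at least 100 counts in total, 77 were identical to another row in every library, so the miR-30f row holds no separate measurement and is not described further.

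Library totals ranged from 45242 to 2394918 counts in Exe and Epi and from 154061 to 26970637 in the AG-haESC and SC groups, and levels are given as CPM, the count of a miRNA scaled to a library total common to all libraries. A few libraries stood apart. E6.5 Epi Dnmt-null replicate 1 had the lowest total, and E6.5 Exe Dnmt1-KO replicate 3 had no count of miR-30a-3p or miR-30e-3p. In E6.5 Exe Dnmt1-KO, blood and endothelium miRNAs summed to 320 to 8939 CPM (median 694 CPM). Mesenchyme and decidua miRNAs in that group summed to 351 to 4228 CPM (median 544 CPM). In E6.5 SC WT replicate 3 the 5 primed epiblast miRNAs (miR-302a/b/c/d-3p and miR-367-3p) summed to 21252 CPM, against 195381 to 214514 in the other two. The libraries labelled Mir-6KO AG-haESC went against their label. miR-127-3p, whose gene is one of the 6 deleted, was at 35728 to 44853 CPM there, above 551 to 594 in O48, and the miR-302/367 sum was 239331 to 268002 CPM, against 924 to 1670 in O48 and 3659 to 3914 in WT. Over 866 miRNAs, their median correlation across library pairs was 0.948 with E7.5 SC Control, 0.816 with WT AG-haESCs and 0.722 with O48 (6 pairs each, as a description).

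The 7 members together made up a mean of 2.52% to 4.23% of all miRNA counts in the 16 Exe and Epi groups, 3.04% to 3.97% in the SC groups and 5.25% in WT AG-haESCs. Nearly all of this came from 5p strands. In E7.5 Epi control, miR-30c-5p made up 46.0% ± 2.0 (SD, n = 3) of the counts of the 5p members, ahead of miR-30e-5p at 21.3% ± 1.3, miR-30d-5p at 16.5% ± 0.17, miR-30a-5p at 12.6% ± 0.44 and miR-30b-5p at 3.48% ± 0.12. The libraries of these 5 members did not overlap in share. In Exe the leading position was not clear-cut: in E7.5 Exe control, miR-30c-5p was at 7497 to 9381 CPM and miR-30e-5p at 7400 to 8128 CPM. In WT AG-haESCs the order was turned, with miR-30e-5p at 45.8% ± 1.6 and miR-30c-5p at 26.3% ± 1.1 (n = 3). Mature miRNAs are counted as whole reads of nearly equal length, and differences between miRNAs in ligation were not tested.

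**Figure D1:**
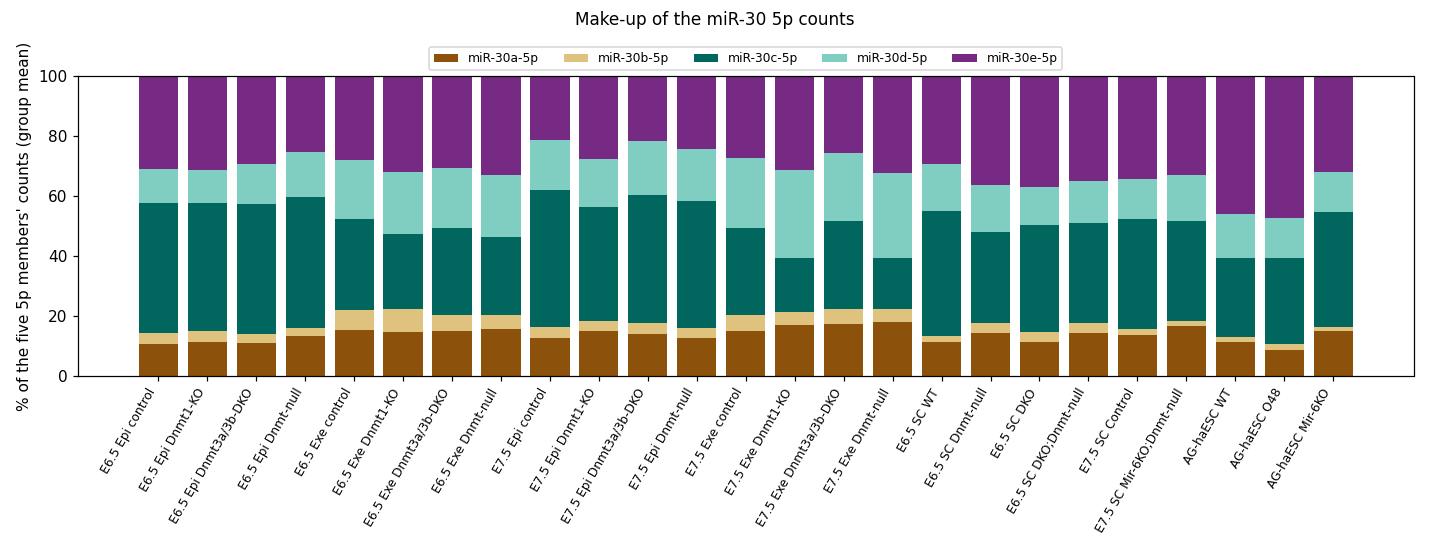
Mean share, in percent, of the counts of the 5p members taken by each of them (stacked colours, vertical axis) in each group of libraries (horizontal axis). miR-30c-5p took 46.0% in E7.5 Epi control, 29.0% in E7.5 Exe control and 17.3% in E7.5 Exe Dnmt-null, while miR-30e-5p took 45.8% in WT AG-haESCs.

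The control embryos were compared first, to ask which members differed between the tissues and stages. miR-30c-5p was the member that separated the tissues at both stages. Its levels in E6.5 Epi control were 16379, 14198, 14548 and 15491 CPM, against 7939, 8999, 9303 and 9001 CPM in E6.5 Exe control. At E7.5 it was at 17694, 17593 and 18563 CPM in Epi and at 8094, 8168, 7497 and 9381 CPM in Exe. The tissues did not overlap at either stage. In edgeR's quasi-likelihood test with Benjamini-Hochberg adjustment over all 558 miRNAs tested, the log2 fold change of miR-30c-5p in Exe over Epi was -0.85 ± 0.14 (SE, adjusted p = 0.000125) at E6.5 and -1.20 ± 0.15 (adjusted p = 3.12e-06) at E7.5. The miR-302/367 sum, which marks primed epiblast, was 130389 to 212606 CPM in these Epi libraries and 17588 to 45944 CPM in the Exe libraries. The Sfmbt2 cluster (78 mature miRNAs that mark trophoblast) summed to 132606 to 250647 CPM in Exe and 7069 to 100516 CPM in Epi. In bulk libraries fewer cells of a type cannot be told apart from less RNA per cell.

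A called member is one with adjusted p under 0.05 over all miRNAs tested in that comparison. At E6.5, 3 of 7 members differed between Exe and Epi in controls, where 29.4% of all miRNAs were called. miR-30a-3p was at 563, 381, 346 and 294 CPM in Exe and at 178, 231, 188 and 150 CPM in Epi, with no overlap (log2 fold change 1.0 ± 0.32, adjusted p = 0.0264). This call was made under 5 of 8 alternative settings, and not with a replicate block. miR-30d-5p, at 4624 to 7107 CPM in Exe and 3561 to 4624 CPM in Epi, had a log2 fold change of 0.45 ± 0.16 (adjusted p = 0.0383), a call made under 2 of 8 alternative settings. miR-30c-5p alone was called without any one of Epi control replicates 1, 3 and 4. At E7.5 miR-30c-5p was the 1 member called, where 33.2% of all miRNAs were. The change of the tissue difference between the stages was not called for any member by edgeR (background 13.4%), with 2 members at an unadjusted p under 0.05 and 3 called by DESeq2. For miR-30a-3p this change was -1.12 ± 0.46 on the log2 scale (adjusted p = 0.122).

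Between E6.5 and E7.5, 2 of 7 members rose in control Epi, where 26.9% of all miRNAs were called and 9.86% as higher. miR-30d-5p rose from 3870, 4624, 3561 and 3794 CPM to 6595, 6441 and 6270 CPM (log2 fold change 0.73 ± 0.17, adjusted p = 0.00311), and miR-30a-3p from 150 to 231 CPM to 379, 381 and 412 CPM (1.1 ± 0.34, adjusted p = 0.0205). The stages did not overlap for either. Without E6.5 Epi replicate 3 or 4 or E7.5 Epi replicate 1, 1 member was called. Marker sums also moved between these stages without overlap. The Sfmbt2 cluster sum was 21217 to 100516 CPM at E6.5 and 7069 to 8643 CPM at E7.5. The miR-290-295 cluster of early embryonic cells summed to 92205 to 99517 CPM and 27867 to 28232 CPM. Endoderm miRNAs summed to 761 to 1768 CPM and 3459 to 4174 CPM. Mesenchyme and decidua miRNAs summed to 82.8 to 123 CPM and 277 to 413 CPM. Their part in the rise of these 2 members was not tested. In control Exe no member was called by edgeR (background 14.3%), none had an unadjusted p under 0.05, and 1 was called by DESeq2. The members' log2 fold changes there ran from -0.34 to 0.24.

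**Figure D2:**
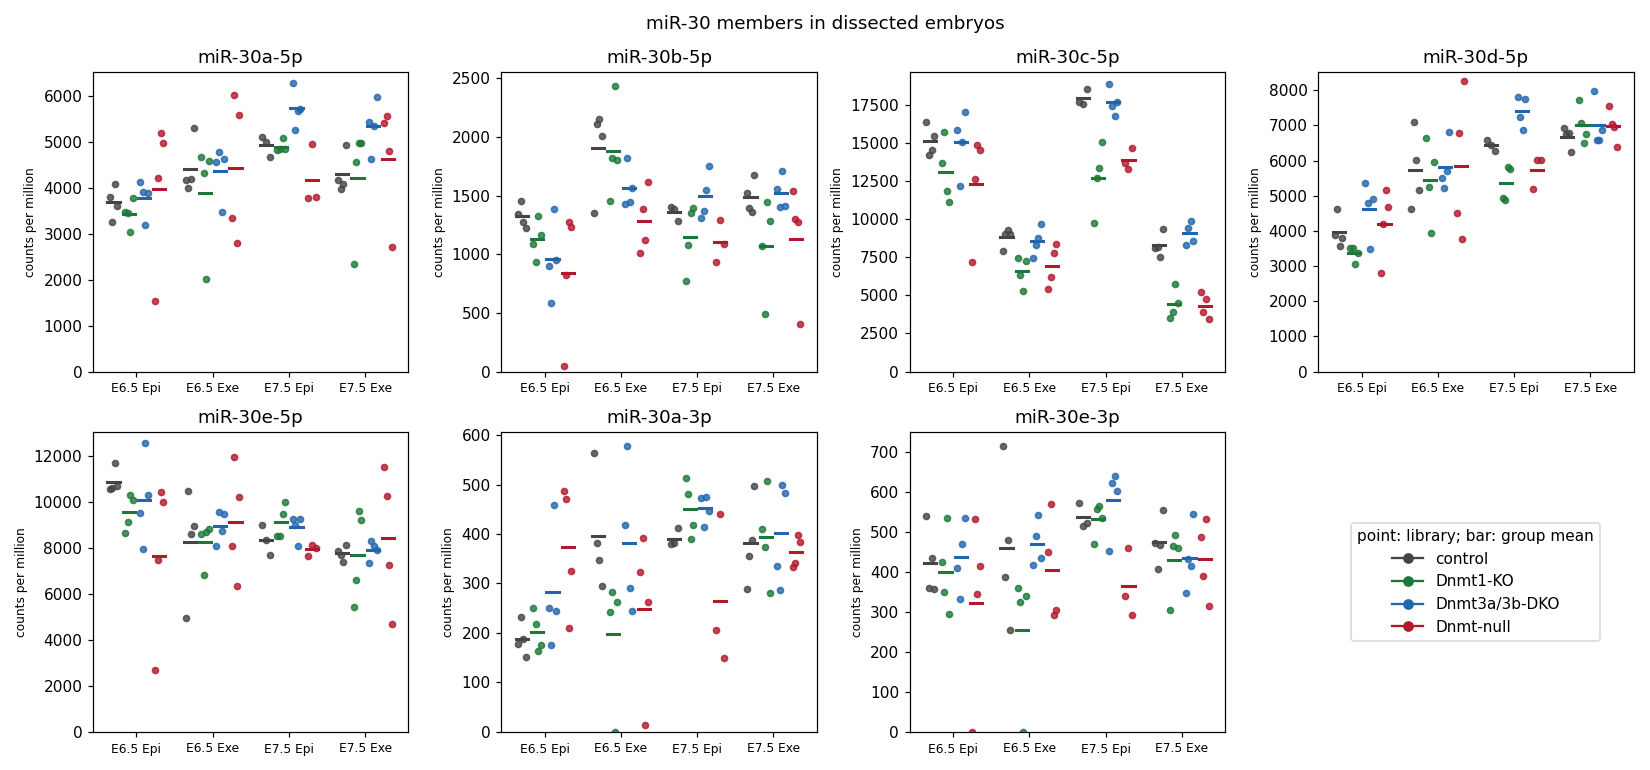
Level of each of the 7 members in CPM (vertical axes, from 0) in every Exe and Epi library (points) by tissue and stage (horizontal axis) and genotype (colour), with a bar at each group mean. miR-30c-5p is higher in Epi than in Exe, and in E7.5 Exe its Dnmt1-KO and Dnmt-null libraries, at 3452 to 5749 CPM, lie below the controls at 7497 to 9381 CPM.

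The Dnmt genotypes were compared with control within each tissue and stage, to ask how loss of DNA methylation enzymes moved each member. In E7.5 Exe, miR-30c-5p was lower in Dnmt1-KO and in Dnmt-null, and was not called in Dnmt3a/3b-DKO. It was at 3523, 3915, 5749 and 4470 CPM in Dnmt1-KO and at 5199, 3907, 4739 and 3452 CPM in Dnmt-null. In Dnmt3a/3b-DKO it was at 8334, 9450, 9892 and 8574 CPM, beside the control levels of 8094, 8168, 7497 and 9381 CPM. Every Dnmt1-KO and Dnmt-null library lay below every control and Dnmt3a/3b-DKO library. The log2 fold change from control was -0.87 ± 0.15 in Dnmt1-KO (edgeR adjusted p = 0.0021), -0.92 ± 0.15 in Dnmt-null (adjusted p = 0.000509) and 0.09 ± 0.15 in Dnmt3a/3b-DKO (adjusted p = 0.957). Dnmt-null also differed from Dnmt3a/3b-DKO (-1.01 ± 0.15, adjusted p = 0.000535), while its difference from Dnmt1-KO was -0.05 ± 0.15 (adjusted p = 0.916). Dnmt1-KO was not tested against Dnmt3a/3b-DKO.

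miR-30c-5p was the 1 member called of 7 in each of Dnmt1-KO and Dnmt-null in E7.5 Exe, where 5.03% and 9.88% of all 597 miRNAs were called, 0.838% and 3.02% as lower. The comparison of Dnmt-null with Dnmt3a/3b-DKO called the same 1 member (background 3.85%), and that with Dnmt1-KO called none (background 1.17%, none at an unadjusted p under 0.05, none by DESeq2). Dnmt3a/3b-DKO called none (background 3.02%, none at an unadjusted p under 0.05, none by DESeq2). The other 6 members had log2 fold changes between -0.43 and 0.13 in Dnmt1-KO and between -0.42 and 0.11 in Dnmt-null, with miR-30b-5p the lowest in both. The median over all 597 miRNAs was -0.09 and -0.05. As a share of the 5p members' counts, miR-30c-5p was 29.0% (27.6% to 30.9%) in control, 29.4% (27.2% to 31.3%) in Dnmt3a/3b-DKO, 18.0% (16.8% to 20.3%) in Dnmt1-KO and 17.3% (13.9% to 19.6%) in Dnmt-null, a ratio within each library that does not rest on scaling between libraries.

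The summed level of epiblast miRNAs lay below every control library in Dnmt-null and overlapped the controls in Dnmt1-KO and Dnmt3a/3b-DKO. The miR-302/367 sum was 33368 to 45944 CPM in control, 10428 to 37250 CPM in Dnmt1-KO, 17252 to 27413 CPM in Dnmt-null and 23667 to 37563 CPM in Dnmt3a/3b-DKO, with all 5 of 5 miRNAs counted in each group. The Sfmbt2 cluster sum was 143299 to 180595 CPM in control, 102688 to 167117 CPM in Dnmt1-KO, 93243 to 172212 CPM in Dnmt-null and 132533 to 169117 CPM in Dnmt3a/3b-DKO. In Dnmt-null the blood and endothelium list, with 7 of its 10 miRNAs in the table, was at 302 to 1466 CPM against 1070 to 2855 CPM in control. The endoderm list was at 7572, 8169, 6259 and 1735 CPM in Dnmt-null, against 3088 to 5221 CPM in control, and the miR-290-295 sum at 64924 to 75393 CPM against 75627 to 91685 CPM. In Dnmt1-KO the miR-290-295 sum was 53481 to 74333 CPM, also below every control library. In Dnmt3a/3b-DKO it was 70636 to 79476 CPM and overlapped control. The part of these miRNAs in the lower miR-30c-5p was not tested. The calls of miR-30c-5p stood without each library in turn, the low miR-30a-5p or miR-30b-5p libraries Dnmt1-KO replicates 1 and 2 and Dnmt-null replicate 4 included (log2 fold changes of -0.79 to -1.01 in Dnmt1-KO and -0.87 to -1.02 in Dnmt-null).

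In E7.5 Epi, miR-30c-5p was lower in the same 2 genotypes. Against 17694, 17593 and 18563 CPM in control, it was at 9749, 12715, 13336 and 15088 CPM in Dnmt1-KO and at 13721, 13272 and 14665 CPM in Dnmt-null. It stood at 18898, 17420, 16746 and 17687 CPM in Dnmt3a/3b-DKO. No Dnmt1-KO or Dnmt-null library reached a control library, and Dnmt3a/3b-DKO overlapped the controls. The log2 fold change was -0.69 ± 0.12 in Dnmt1-KO (edgeR adjusted p = 0.000573), -0.60 ± 0.13 in Dnmt-null (adjusted p = 0.00172) and -0.11 ± 0.12 in Dnmt3a/3b-DKO (adjusted p = 0.744). These comparisons share their control libraries. The change of miR-30c-5p in Dnmt-null was not called as different between Epi and Exe at E7.5 (0.30 ± 0.29, adjusted p = 0.811).

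Dnmt1-KO Epi at E7.5 called 2 of 7 members, both lower, where 16.3% of all 652 miRNAs were called and 7.98% as lower. The second was miR-30d-5p, at 4937, 4879, 5803 and 5773 CPM against 6595, 6441 and 6270 CPM, with no overlap (-0.46 ± 0.11, adjusted p = 0.0058). That call was made under 4 of 8 alternative settings, with log2 fold changes of -0.48 to -0.27, and without each of the 7 libraries in turn. In Dnmt1-KO Epi the miR-302/367 sum was 135939 to 200375 CPM against 202279 to 212606 CPM in control, and the Sfmbt2 cluster sum 10194 to 11453 CPM against 7069 to 8643 CPM, neither overlapping. The miR-290-295 sum, at 28908 to 43043 CPM, lay above its control range of 27867 to 28232 CPM. In Dnmt3a/3b-DKO Epi, where no member was called, this sum was also above that range, at 29137 to 39328 CPM. There the miR-302/367 sum (193250 to 203244 CPM) and the Sfmbt2 cluster sum (8507 to 19941 CPM) overlapped control. Dnmt1-KO replicate 1 was the lowest of its group both in miR-302/367 and in miR-30c-5p. The part of these miRNAs in the lower members was not tested. Dnmt3a/3b-DKO called none (background 7.67%, none at an unadjusted p under 0.05, none by DESeq2).

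Dnmt-null Epi at E7.5 called all 7 members as lower, where 33.7% of all miRNAs were called and 17.3% as lower. The log2 fold changes ran from -0.81 ± 0.29 for miR-30a-3p (adjusted p = 0.0426) and -0.80 ± 0.20 for miR-30e-3p (adjusted p = 0.00645) to -0.30 ± 0.11 for miR-30e-5p (adjusted p = 0.0388), with a median of -0.54 beside -0.19 over all 652 miRNAs tested. This count depended on how the libraries were scaled. With library totals alone the median over all miRNAs was 0.05 and 1 member, miR-30c-5p, was called (log2 fold change -0.37, adjusted p = 0.033), and with RLE size factors 4 were called. Without any 1 of the 3 controls 4 were called, without Dnmt-null replicate 2 or 3 there were 5, and without replicate 1 there was 1, miR-30c-5p. Relative to the median of all miRNAs, miR-30c-5p was lower by 0.41 to 0.42 on the log2 scale under the 3 scalings and miR-30e-5p by 0.11 to 0.12.

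In CPM, 3 of the 7 members did not overlap the controls. miR-30c-5p and miR-30e-3p, the latter at 341, 461 and 293 CPM against 572, 515 and 524 CPM in control, were 2 of them, and miR-30d-5p, at 5182, 6009 and 6008 CPM against 6595, 6441 and 6270 CPM, was the third. For miR-30a-5p (3775, 4972 and 3802 CPM against 5113, 5016 and 4670 CPM) and miR-30e-5p (7656, 8115 and 8000 CPM against 8986, 8330 and 7678 CPM) the groups overlapped. They also overlapped for miR-30b-5p (931, 1295 and 1089 CPM against 1402, 1389 and 1286 CPM). For miR-30a-3p (205, 440 and 150 CPM against 379, 381 and 412 CPM) replicate 2 lay above every control, and the log2 fold change without it was -1.32 (adjusted p = 0.00183). It was not called without any 1 of the other 5 libraries of these groups. The miR-302/367 sum was 105333 to 164935 CPM in Dnmt-null Epi and 202279 to 212606 CPM in control, and the Sfmbt2 cluster sum 15197 to 31219 CPM against 7069 to 8643 CPM. The miR-290-295 cluster of early embryonic cells (6 of 6 miRNAs counted) summed to 38680 to 50651 CPM against 27867 to 28232 CPM. The endoderm list was at 2345 to 3063 CPM against 3459 to 4174 CPM, and the mesenchyme and decidua list at 85.7 to 160 CPM against 277 to 413 CPM. The blood and endothelium list was at 225 to 282 CPM against 336 to 542 CPM. None of these sums overlapped between the groups, and their part in the lower levels was not tested.

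Dnmt-null Epi at E7.5 also differed from Dnmt3a/3b-DKO in all 7 members (background 16.4%, and 9.82% as lower), with log2 fold changes from -0.93 to -0.31. Leaving out 1 of the 7 libraries left 2 to 5 calls, the 2 without Dnmt3a/3b-DKO replicate 1 or Dnmt-null replicate 1, and mmu-miR-30c-5p, Dnmt-null minus Dnmt3a/3b-DKO, E7.5 Epi, was among those lost without the former (-0.29, adjusted p = 0.156), as well as without Dnmt-null replicate 1 (-0.44, adjusted p = 0.0584) or 2 (-0.42, adjusted p = 0.0521), and with RLE size factors or library totals. Against Dnmt1-KO none was called by edgeR (background 10.9%), 4 had an unadjusted p under 0.05 and 2 were called by DESeq2. The difference farthest from 0 was that of miR-30a-3p (-0.83 ± 0.28, adjusted p = 0.0665).

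At E6.5 no member was called in any genotype. In Exe, edgeR called none in Dnmt1-KO (background 0%), Dnmt3a/3b-DKO (background 0.532%) or Dnmt-null (background 0.532%), with 1, 0 and 2 members at an unadjusted p under 0.05 and 0, 0 and 1 called by DESeq2. miR-30c-5p was at 7939 to 9303 CPM in Exe control, 5263 to 7428 CPM in Dnmt1-KO (log2 fold change -0.58 ± 0.21, adjusted p = 0.247) and 5386 to 8345 CPM in Dnmt-null (-0.55 ± 0.21, adjusted p = 0.192). Its Dnmt1-KO libraries all lay below the controls, and its Dnmt-null libraries overlapped them.

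In E6.5 Epi the background was 0.733% in Dnmt1-KO, 3.42% in Dnmt3a/3b-DKO and 13% in Dnmt-null, and 0, 0 and 1 members had an unadjusted p under 0.05, with none called by DESeq2. miR-30c-5p in Dnmt-null (7206, 12640, 14853 and 14541 CPM) had a log2 fold change of -0.43 ± 0.23 (adjusted p = 0.247), and -0.21 without the shallow replicate 1 (adjusted p = 0.517). The Dnmt-null change of miR-30c-5p in Exe was 0.54 lower at E7.5 than at E6.5 on the log2 scale, a difference that was not called (-0.54 ± 0.27, adjusted p = 0.627). No member was called in the 4 tests of a difference in the Dnmt-null change between tissues or stages, where the background was 0.912% and 0.608% between tissues at E6.5 and E7.5 and 10.6% and 0.608% between stages in Epi and Exe, and 1 member, miR-30e-5p between tissues at E6.5, had an unadjusted p under 0.05. DESeq2 called 1 member in 2 of these 4 tests.

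**Figure D3:**
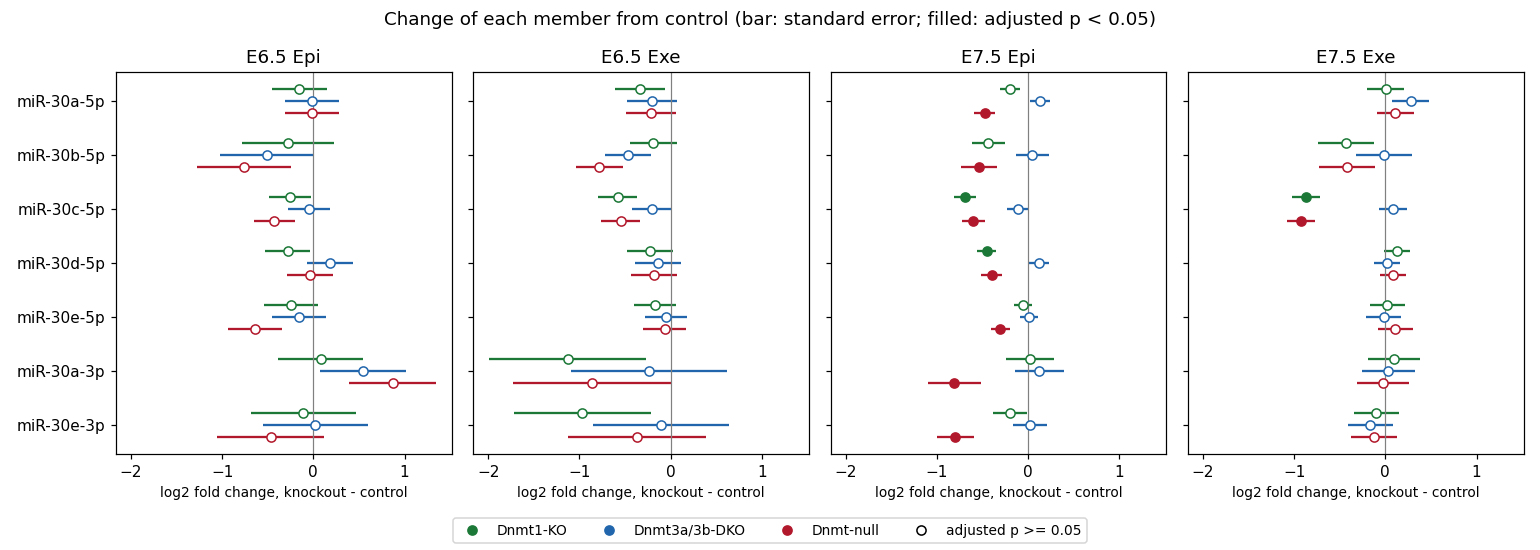
Log2 fold change of each member from control (horizontal axes, bar: standard error of edgeR's fit) for each Dnmt genotype (colour), in 1 panel for each tissue and stage, with filled points at an adjusted p under 0.05. In E7.5 Exe the 2 filled points are miR-30c-5p at -0.87 and -0.92, and in E7.5 Epi Dnmt-null all 7 members are filled, from -0.81 to -0.30.

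The rest of the family comprised miR-30b-3p, miR-30c-1-3p, miR-30c-2-3p, miR-30d-3p and miR-384-5p beside miR-30f. These were far less abundant, with means of 7.19 to 199 CPM for the 3p strands in the control groups. miR-384-5p, which shares the 5p seed and lies on the X chromosome (chrX:105344332-105344354), was counted nearly only in Epi. In E6.5 it had 16, 12, 23 and 29 counts in Epi control libraries and 0, 0, 1 and 0 counts in Exe control libraries. At E7.5 it had 133, 100 and 98 counts in Epi control (53.2 to 60.4 CPM) and 0, 7, 0 and 11 counts in Exe control (at most 22.03 CPM). The edgeR test called the tissue difference at both stages (adjusted p = 0.0224 and 0.0487).

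In E7.5 Epi Dnmt-null, miR-384-5p fell to 5, 5 and 6 counts (18.3, 10.2 and 21.4 CPM), below every other Epi library of that stage, with a log2 fold change of -2.02 from control (adjusted p = 0.00961). It was at 67.1 to 125 CPM in Dnmt1-KO, from which Dnmt-null differed by -2.51 (adjusted p = 0.0057), and at 29.4 to 85.9 CPM in Dnmt3a/3b-DKO. Of the other 4, miR-30b-3p was lower in E7.5 Epi Dnmt-null (-1.23, adjusted p = 0.0139), and none differed between tissues or stages in controls by edgeR.

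In E6.5 SC embryos the members were compared with WT and with DKO. No member was called in Dnmt-null SC embryos against WT (background 1.52%, none at an unadjusted p under 0.05, none by DESeq2) or in DKO against WT (background 0.217%, none at an unadjusted p under 0.05, none by DESeq2). miR-30c-5p was at 10262, 7972 and 10413 CPM in Dnmt-null and 13332, 16813 and 7225 CPM in WT. The third WT library, the one with few epiblast miRNAs, was the lowest of the 6. With it the log2 fold change was -0.60 ± 0.32 (edgeR adjusted p = 0.333), and without it -0.87 (adjusted p = 0.030), which was the 1 member then called. The epiblast miRNAs summed to 82565, 88140 and 122808 CPM in Dnmt-null. They summed to 21252 CPM in the third WT library and to 195381 and 214514 CPM in the other WT libraries. The Sfmbt2 cluster sum was 42042, 47168 and 159045 CPM in Dnmt-null and 5955 to 57551 CPM in WT. The part of these miRNAs in the level of miR-30c-5p was not tested.

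DKO-Dnmt-null SC embryos differed from DKO in 2 of 7 members, both higher, where 35.3% of all 603 miRNAs were called and 18.9% as higher. miR-30a-3p was at 351, 395 and 375 CPM against 221, 200 and 193 CPM (log2 fold change 0.74 ± 0.14, adjusted p = 0.000295). miR-30a-5p was at 4899, 4894 and 4854 CPM against 3851, 3809 and 4044 CPM (0.22 ± 0.08, adjusted p = 0.0365). Neither overlapped, and without DKO replicate 1 or 3 or DKO-Dnmt-null replicate 3 only 1 member was called. Of the 6 fits that left out 1 library, miR-30a-3p was called in all 6 and miR-30a-5p in 2. The call of miR-30a-5p was also lost under the study's thresholds and without the low-count filter. miR-30c-5p, at 11198, 12148 and 11167 CPM against 11778, 12729 and 12696 CPM, had a log2 fold change of -0.21 ± 0.08 (adjusted p = 0.0554). Among the rest of the family, 3 of the 3p strands were lower, namely miR-30b-3p (-0.71, adjusted p = 0.0141), miR-30c-1-3p (-0.69, adjusted p = 0.041) and miR-30d-3p (-0.83, adjusted p = 0.00858). The miR-302/367 sum was 130119 to 147052 CPM in DKO-Dnmt-null and 177971 to 196784 CPM in DKO. The Sfmbt2 cluster sum was 69560 to 88342 CPM against 56718 to 64767 CPM. The endoderm list was at 2687 to 3595 CPM against 1604 to 1966 CPM, and the mesenchyme and decidua list at 220 to 304 CPM against 169 to 196 CPM. The miR-290-295 sum and the blood and endothelium list overlapped. The part of these miRNAs in the differences of the members was not tested. The 2 groups were counted in separate tables, so the table and the genotype cannot be told apart in this comparison.

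At E7.5, Mir-6KO-Dnmt-null SC embryos differed from Control in no member by edgeR (background 3.08%) or DESeq2, with miR-30a-3p alone at an unadjusted p under 0.05 (975, 671 and 681 CPM against 432, 520 and 412 CPM, log2 fold change 0.52 ± 0.22, adjusted p = 0.368). E7.5 SC Control against E6.5 SC DKO, which compares stages in embryos made from DKO cells, called 4 of 7 members (background 28.7%). miR-30a-3p rose from 221, 200 and 193 CPM to 432, 520 and 412 CPM (1.38 ± 0.14, adjusted p = 0.000935), and miR-30a-5p (0.45 ± 0.10, adjusted p = 0.0178) and miR-30e-3p (0.52 ± 0.13, adjusted p = 0.0258) rose with it. The calls of miR-30a-5p and miR-30e-3p were each made under 4 of 7 alternative settings, with log2 fold changes down to 0.23 and 0.29. miR-30b-5p fell from 1173, 1168 and 1098 CPM to 527, 725 and 493 CPM (-0.76 ± 0.15, adjusted p = 0.012). Without any 1 of the 3 DKO libraries, 1 member was called. The Sfmbt2 cluster sum was 56718 to 64767 CPM at E6.5 and 11736 to 29317 CPM at E7.5, and the miR-290-295 sum 73201 to 83078 CPM and 25604 to 28514 CPM. Stage and tissue taken cannot be told apart here. In control Epi, where the stages were compared above, miR-30a-3p also rose and miR-30b-5p was at 1225 to 1458 CPM at E6.5 and 1286 to 1402 CPM at E7.5.

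**Figure D4:**
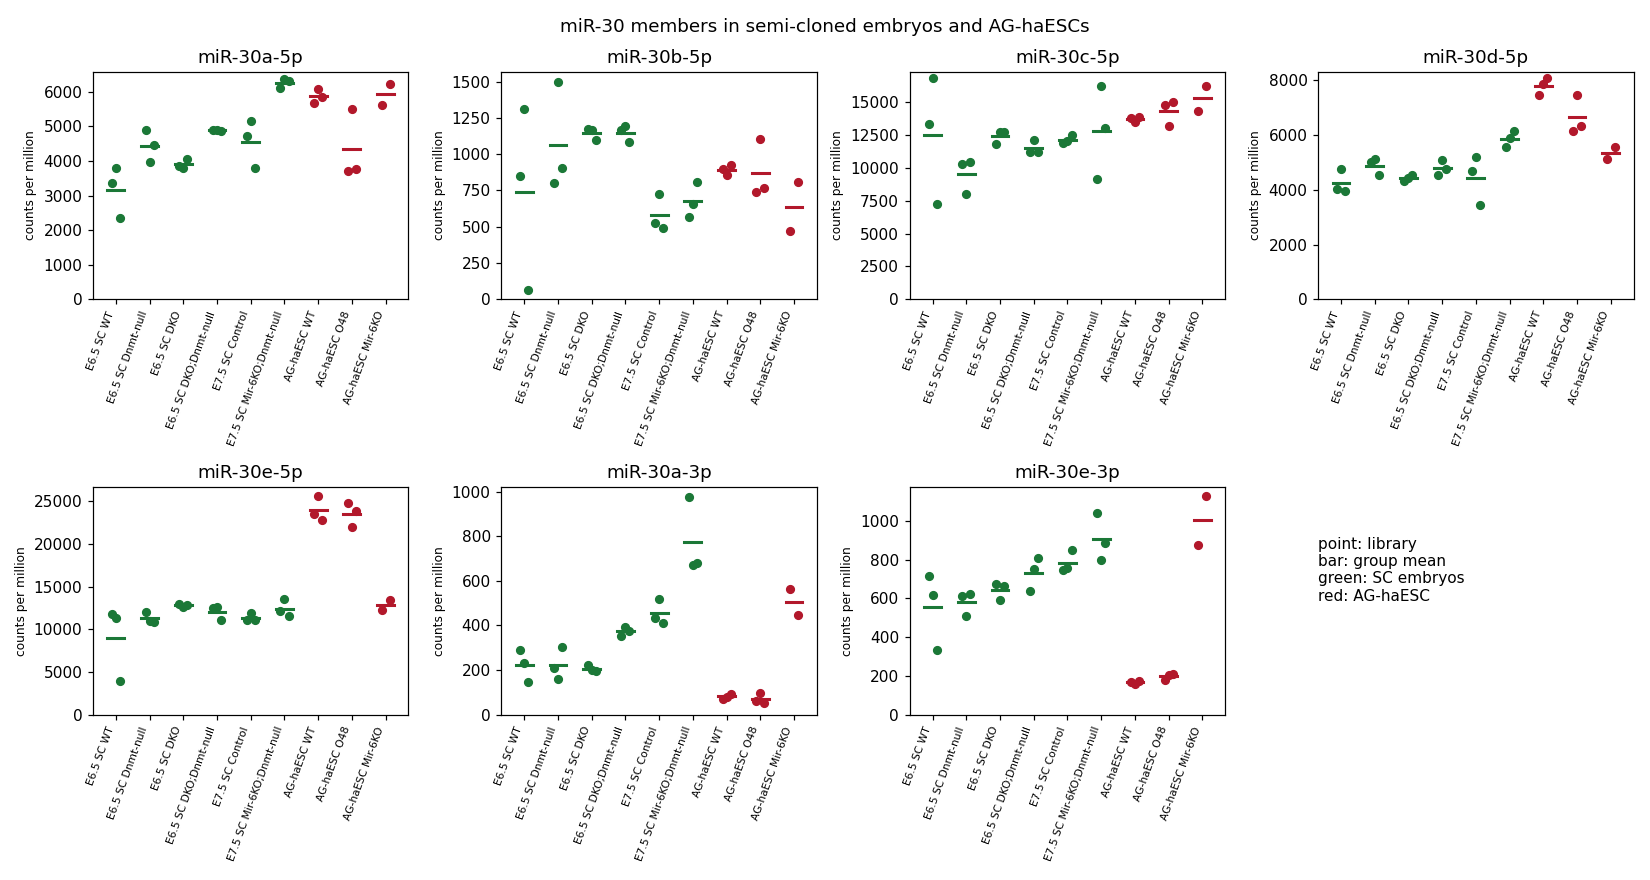
Level of each member in CPM (vertical axes, from 0) in every SC embryo library (green points) and AG-haESC library (red points), with a bar at each group mean. miR-30e-5p lies at 21980 to 25575 CPM in WT and O48 AG-haESCs and at 3938 to 13530 CPM in SC embryos and in the libraries labelled Mir-6KO AG-haESC.

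The AG-haESCs stood apart from embryos in which strand of the Mir30a and Mir30e hairpins was counted. In WT AG-haESCs miR-30e-5p was at 23479, 25575 and 22801 CPM, against 11812, 11313 and 3938 CPM in E6.5 SC WT embryos, while miR-30e-3p was at 168, 160 and 171 CPM against 713, 618 and 333 CPM. The 5p strand was thus higher and the 3p strand of the same hairpin lower, with no overlap in either. The log2 fold changes in edgeR's test were 1.98 ± 0.42 for miR-30e-5p (adjusted p = 0.00809) and -1.17 ± 0.37 for miR-30e-3p (adjusted p = 0.0369). For the other hairpin, miR-30a-5p was at 5668, 6084 and 5852 CPM against 3360, 3790 and 2350 CPM (1.44 ± 0.30, adjusted p = 0.0076). Its 3p strand was at 71.0, 80.8 and 91.8 CPM against 290, 230 and 147 CPM (-0.89 ± 0.37, adjusted p = 0.0977).

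In all, 4 of 7 members were called, 3 higher and 1 lower, where 39.3% of all 603 miRNAs were called. The fourth was miR-30d-5p, at 7470, 7848 and 8078 CPM against 4028, 4763 and 3961 CPM (1.42 ± 0.28, adjusted p = 0.00646). Without the third SC WT library 6 of 7 were called, miR-30a-3p (-1.04, adjusted p = 0.00488) and miR-30c-5p (0.48, adjusted p = 0.0172) among them, and without WT AG-haESC replicate 1 or 2 there were 2. The median over all miRNAs was 0.28 with TMM and -0.27 with library totals alone. The comparison sets cells in culture beside embryo tissue, and cell state and culture cannot be told apart.

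The ratio of 5p to 3p counts within a library needs no scaling between libraries. For Mir30e it was 139, 160 and 133 in WT AG-haESCs, 138, 109 and 114 in O48 and 16.5, 18.3 and 11.8 in E6.5 SC WT. For Mir30a it was 79.7, 75.2 and 63.7 in WT AG-haESCs, 59.1, 57.9 and 71.2 in O48 and 11.5, 16.4 and 15.8 in E6.5 SC WT. Neither hairpin overlapped between AG-haESCs of these 2 lines and SC WT embryos. The differences in mean log2 ratio between WT AG-haESCs and SC WT were 3.23 and 2.33. In a two-sided exact permutation test each had p = 0.1, the smallest that 3 libraries against 3 allow, and adjusted p = 0.373 over the 56 arm-ratio tests made. Over the 80 hairpins with both strands at a mean of at least 10 counts, the median difference was 0.13 and the median absolute difference 1.02. Of these, 3 hairpins had a larger absolute difference than Mir30e and 11 than Mir30a.

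The libraries labelled Mir-6KO AG-haESC had ratios of 13.98 and 11.88 for Mir30e and 9.98 and 13.98 for Mir30a, within the range of the SC embryo libraries (6.27 to 24.4 over both hairpins). In the SC groups mean ratios were 13.88 to 19.99 for Mir30e and 8.34 to 20.8 for Mir30a. In the dissected control tissues they were 15.5 to 26.3 and 11.5 to 20.2. None of the 56 tests reached an unadjusted p under 0.05, and no tests of 3 against 3 or 2 against 3 libraries could. In E6.5 Exe Dnmt1-KO replicate 3 and, for Mir30e, E6.5 Epi Dnmt-null replicate 1, the 3p count was 0 and the ratio has no meaning.

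**Figure D5:**
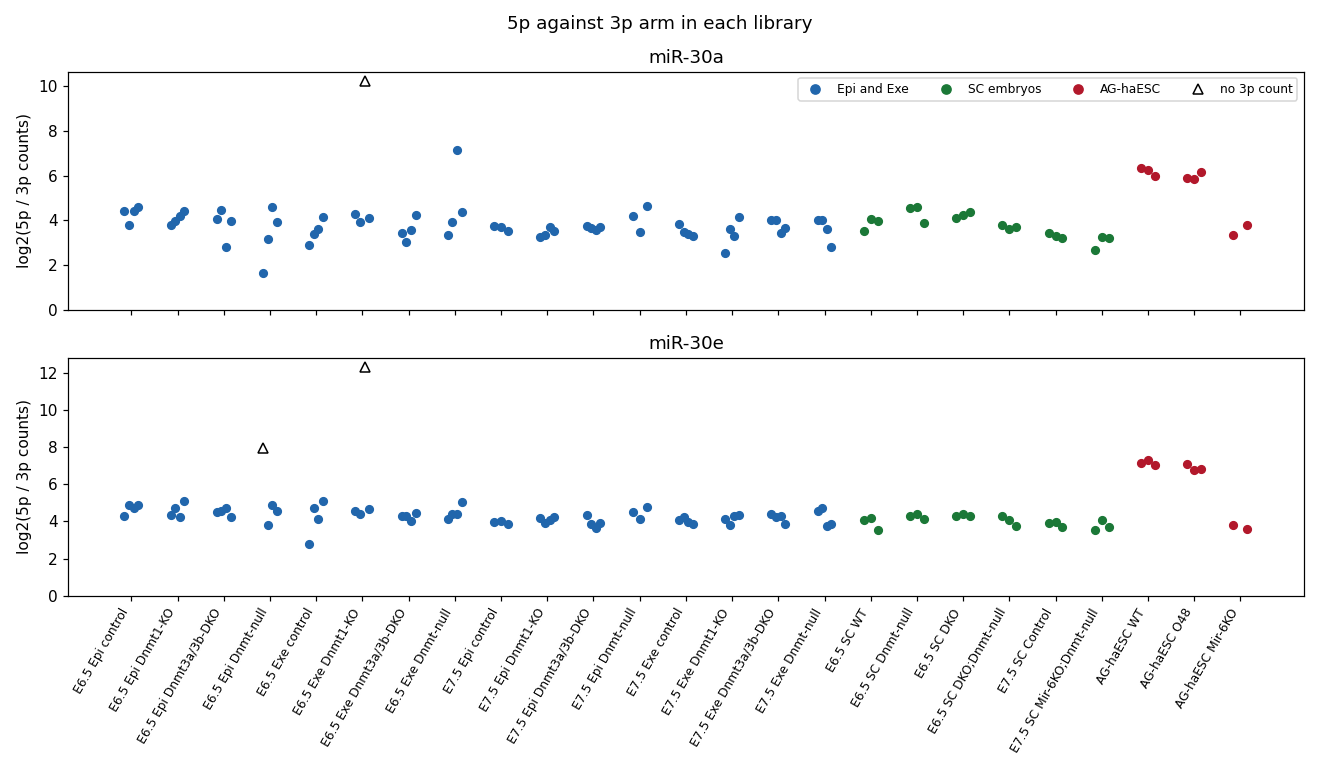
Log2 ratio of 5p to 3p counts (vertical axes, 0.5 added to each count) for the Mir30a and Mir30e hairpins in every library (points) by group. Colours mark dissected tissues, SC embryos and AG-haESCs, and open triangles mark libraries with no 3p count. WT and O48 AG-haESCs lie at 5.86 to 7.32, and the SC embryos and the libraries labelled Mir-6KO at 2.65 to 4.61.

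O48 did not differ from WT AG-haESCs in any member by edgeR (background 13.7%), with miR-30a-5p alone at an unadjusted p under 0.05 (3700, 5514 and 3779 CPM against 5668, 6084 and 5852 CPM, log2 fold change -0.41 ± 0.17, adjusted p = 0.207). DESeq2 called 3 members, as higher. The libraries labelled Mir-6KO differed from O48 in 6 of 7 members, where 52.1% of all 773 miRNAs were called, and the median over all miRNAs was -0.82. miR-30a-3p (563 and 445 CPM against 62.5, 95.2 and 53.0 CPM) and miR-30e-3p (878 and 1126 CPM against 179, 202 and 210 CPM) were higher, with log2 fold changes of 2.33 ± 0.32 (adjusted p = 0.000507) and 1.85 ± 0.20 (adjusted p = 0.000131). miR-30e-5p was lower (12270 and 13371 CPM against 24816, 21980 and 23858 CPM, -1.38 ± 0.12, adjusted p = 3.95e-05). Relative to the median of all miRNAs miR-30e-5p was at -0.56, miR-30d-5p at 0.00 and miR-30c-5p at 0.42, so the direction of the last depended on scaling. Since these libraries went against their label, the values describe the libraries and not the deletion.

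The members did not move as a block across the Exe and Epi groups. Over the 16 group means of log2 CPM, Pearson's r was 0.80 between miR-30a-5p and miR-30d-5p, 0.65 between miR-30c-5p and miR-30e-5p and -0.06 between miR-30c-5p and miR-30d-5p, as descriptions of groups that share libraries and scaling. miR-30c-5p and miR-30e-5p have hairpins in the same Nfyc introns, and miR-30a-5p and miR-30c-5p, also from neighbouring hairpins, had r = 0.45. The miRNAs outside the family whose pattern was most like the mean of the 5p members over the same 16 groups, out of 658, were miR-3086-5p (r = 0.89), miR-16-5p (0.88), miR-103-3p (0.86), miR-151-5p (0.85) and miR-140-3p (0.83). The 5p members themselves reached 0.84 (miR-30a-5p) down to 0.52 (miR-30d-5p) against that mean, which includes them. The 3p members were at 0.68 (miR-30e-3p) and 0.35 (miR-30a-3p).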

How the data were processed

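The authors sequenced small RNA by CAS-seq on a NovaSeq and deposited raw counts per mature miRNA in 2 tables of 1504 and 895 miRNAs. Per the submitters' processing notes and the study's methods, fastp 0.20.1, Bowtie 1.2.1.1, GRCm38, miRBase 21 and DESeq2 1.30.1 were used, and a read could differ slightly from the miRBase entry in its 3′ end. Counts come from PCR without molecular identifiers, so any precision from depth covers counting error only. Library totals ranged from 45242 to 26970637, and 2 columns of no sample were left out.

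Groups were taken from the sample labels, and 3 libraries had none. Raw counts were fitted over all miRNAs with edgeR 4.0.16 (R 4.3.3, quasi-likelihood, TMM, filterByExpr with a minimum of 10), adjusting by Benjamini-Hochberg within each of 33 comparisons. The SE is the log2 fold change over the square root of F. Alternatives were DESeq2 1.42.0, RLE size factors, library totals only, omitting the low-count filter, filtering instead on a mean count of 10, only the groups compared, a replicate block, the study's thresholds (log2 fold change over 0.5 and unadjusted p under 0.05), and leaving out each library. Arm ratios added 0.5 to each count (alternative 1) and were tested by exact permutation. Tables were handled with Python 3.11.15, numpy 2.4.6, pandas 2.3.3 and matplotlib 3.10.9. The fits were tested on simulated data. All 7 members were tested in every comparison, but not each is named with its values. Other miRNAs are named as the remaining family, the marker lists and the 5 patterns most like the members. The members and lists were chosen with earlier results of these data known.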

Additional observations from a re-analysis of the deposited data

Results flagged for a closer look

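In groups of 4 libraries, a value was singled out where its gap to the nearest other library, divided by the range of the group, was above Dixon's critical value for 4 values. Each of the 7 members was checked in each Exe and Epi group of 4 libraries. Chance singles out about 5% of such checks, and 9 values passed, some of them in the same library. In E6.5 Exe Dnmt1-KO, replicate 3 had miR-30a-5p at 2010 CPM (the others at 4330 to 4690), miR-30a-3p at 0 CPM (243 to 282) and miR-30e-3p at 0 CPM (325 to 359), and replicate 2 had miR-30e-5p at 6800 CPM (8580 to 8830). miR-30a-5p was at 3470 CPM in E6.5 Exe Dnmt3a/3b-DKO replicate 3 (4570 to 4780) and at 5310 CPM in E6.5 Exe control replicate 4 (4000 to 4200). It was at 2350 CPM in E7.5 Exe Dnmt1-KO replicate 1 (4570 to 4980) and at 5100 CPM in E7.5 Epi Dnmt1-KO replicate 3 (4830 to 4850). miR-30e-5p was at 11700 CPM in E6.5 Epi control replicate 3 (10500 to 10700). None of the 9 values was of miR-30c-5p.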

How the results depend on the processing

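The calls of miR-30c-5p between control Exe and Epi at both stages, in Dnmt1-KO and Dnmt-null Exe and Epi at E7.5, and between Dnmt-null and Dnmt3a/3b-DKO Exe at E7.5 were made under 8 of 8 alternatives and without each library in turn. Counts of members called moved as follows, and the cause was not tested. In Dnmt-null Epi at E7.5 there were 4 with the study's thresholds, DESeq2, RLE size factors or a mean of at least 10 counts, and 1 with library totals or no filter. In Dnmt1-KO Epi at E7.5 there was 1 with the study's thresholds, library totals, no filter or only the groups compared. In E7.5 Epi, Dnmt-null compared with Dnmt3a/3b-DKO gave 3 with RLE or library totals and 2 with no filter, and compared with Dnmt1-KO 2 with the study's thresholds, DESeq2 or a mean of at least 10 counts. Control Exe against Epi at E6.5 gave 1 with no filter, the block or only the groups compared, and at E7.5 2 with DESeq2. The stage comparison gave 1 (no filter) and 4 (only the groups compared) in control Epi and 1 (DESeq2) in control Exe, and its difference between tissues 1 with the study's thresholds and 3 with DESeq2. At E6.5 the study's thresholds gave 1 in Dnmt1-KO Exe, 2 in Dnmt-null Exe and 1 in Dnmt-null Epi, and DESeq2 gave 1 in Dnmt-null Exe. The difference of the Dnmt-null change between tissues at E6.5 gave 1 with both, and that between stages in Epi 1 with DESeq2. In SC embryos the study's thresholds gave 1 for DKO-Dnmt-null and 1 for Mir-6KO-Dnmt-null, and Control against DKO gave 2 with library totals or the block. O48 against WT gave 3 with DESeq2, RLE or only the groups compared. The libraries labelled Mir-6KO against O48 gave 3 with library totals, where the change of mmu-miR-30c-5p, AG-haESC Mir-6KO minus O48, turned to 0.0935 on the log2 scale.

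Leaving out 1 library gave 1 to 4 calls for control Exe against Epi at E6.5 and 1 to 2 at E7.5, 1 to 2 for the stages in Epi and 0 to 1 for the difference between tissues. It gave 1 to 5 for Dnmt-null Epi at E7.5, 0 to 1 against Dnmt1-KO and 2 to 5 against Dnmt3a/3b-DKO. It gave 0 to 1 for SC Dnmt-null, 1 to 2 for DKO-Dnmt-null, 1 to 5 for SC Control against DKO, 0 to 1 for O48, 4 to 6 for the libraries labelled Mir-6KO and 2 to 6 for WT AG-haESCs against SC WT.

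The lowest correlation of deviations between same-numbered libraries was between -0.26 and 0.04 in each fit. Its median was 0.17 in the fit of E6.5 SC embryos, against -0.09 for other pairs. It was 0.08 against -0.05 both in E6.5 Epi and in the fit of DKO and DKO-Dnmt-null SC embryos. In the other fits it was -0.03 to 0.04. These values do not exclude a pairing by replicate number. The replicate block moved a count of calls by over 1.5 times only in the comparisons named above, with smaller moves elsewhere (for example from 7 to 5 for Dnmt-null compared with Dnmt3a/3b-DKO in Epi and from 2 to 3 for Dnmt1-KO in Epi, both at E7.5). With RLE or library totals the median over all miRNAs moved by over 0.1 in 20 of 33 comparisons. At E6.5, 376 to 409 miRNAs passed the filter for the genotype tests, and at E7.5 597 to 652.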

Other observations

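The labels placed 3 AG-haESC libraries of a further line in no group, and they entered no comparison. In these libraries miR-30c-5p was at 16307, 16206 and 16461 CPM, miR-30e-5p at 25591, 28108 and 28280 CPM, miR-30d-5p at 8074, 8133 and 8243 CPM and miR-30a-5p at 6944, 7335 and 7402 CPM. miR-30b-5p was at 911, 875 and 998 CPM. The 3p strands were at 99.7, 92.4 and 108 CPM for miR-30a-3p and at 200, 167 and 203 CPM for miR-30e-3p. The ratio of 5p to 3p counts of Mir30e was 128, 168 and 140.

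miR-384-5p, which shares the 5p seed, had 308 and 568 counts in the libraries labelled Mir-6KO AG-haESC, 0 in each O48 library and 0, 0 and 10 in WT AG-haESCs.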
